A study of Mus musculus with 6 samples.

Results

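Vascular endothelial growth factors and angiopoietins carry the main signals by which heart muscle and stroma speak to their vessels, and 9 genes of these families were followed here. They were the ligands Vegfa, Vegfb, Vegfc and Pgf, the angiopoietins Angpt1 and Angpt2, the receptor Flt4 and the co-receptors Nrp1 and Nrp2, each found by its gene name among the 30914 genes of the deposited table. RNA was sequenced from heart tissue of wild-type male C57BL/6J mice, 8 weeks old when obtained, with 3 hearts in each of 2 groups. Both groups were infused with angiotensin II (Ang II, a peptide hormone that raises blood pressure and enlarges the heart) at 1 μg/kg/min for 4 weeks from osmotic pumps. The Ang II group was given no Tec, and the Ang II + Tec group was also given tectochrysin (Tec, a plant flavonoid) at 5 mg/kg during the last 2 weeks. Hearts without Ang II were not analysed here, so the comparison asks only what differed with Tec on top of Ang II. None of the 9 genes differed between the groups at an adjusted p under 0.05. The nearest were Nrp1 and Nrp2. In the FPKM as deposited, both were lower in every heart of the Ang II + Tec group than in any Ang II heart. The same held for 18.9% of the 13089 genes tested. After scaling by the median of ratios or quantile normalization, the groups overlapped for Nrp1 and Nrp2.

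VEGF-A binds the receptors VEGFR1 (gene Flt1) and VEGFR2 (Kdr) on endothelial cells and drives vessel growth and permeability, whereas VEGF-B and placental growth factor (Pgf) bind VEGFR1. VEGF-C and VEGF-D act on VEGFR3 (Flt4), which in the adult is best known from lymphatic vessels, and the neuropilins bind VEGFs together with the receptors and also serve as receptors of class 3 semaphorins. Angiopoietin 1 activates the receptor Tie2 (Tek) and steadies vessels, and angiopoietin 2, stored and released by endothelial cells, can oppose it.

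Levels are given as FPKM, the fragments of a gene relative to the length of its transcript and to all mapped fragments of the library, which allow genes to be compared with each other. Differences are given as log2 fold changes of the Ang II + Tec group over the Ang II group on the scale of log2(FPKM + 1), which understates the change of genes with low FPKM. They were fitted with limma over 13089 genes that had at least 0.5 FPKM in at least 3 libraries, and all 9 genes passed that filter. Depth in reads is unknown from FPKM and could be read only as a relative value. It was 0.994, 1.01 and 0.977 in Ang II hearts 1 to 3 and 0.939, 1.28 and 1.26 in the hearts given Tec. Over all tested genes the median log2 fold change was -0.17, so that most genes lay slightly lower with Tec, and 10471 of the 13089 had a value below 0. Dividing the libraries by their median of ratios moved that median to 0.00, and the genes with an unadjusted p under 0.05 then went from 274 higher and 2165 lower to 963 higher and 1073 lower. The mitochondrial genome held 41.3%, 40.1% and 48.9% of the summed FPKM in Ang II hearts 1 to 3. In the hearts given Tec it held 51.3%, 49.6% and 52.5%. With libraries scaled to the sum without the mitochondrial genome, the median log2 fold change was -0.14. Members are therefore also set against the general shift of all tested genes.

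Markers of several cell types did not sort the libraries by group, and those of macrophages did. Ventricular markers, 7 of 7 in the table, summed to between 8446 and 10317 FPKM in all 6 libraries. Of the 4 atrial markers (Myl7, Myl4, Sln and Nppa), Myl7 stood at 419, 332 and 0 FPKM in the Ang II group and at 0, 1040 and 1.58 FPKM in the hearts given Tec. Sln and Myl4 were likewise near 0 in Ang II heart 3 and Ang II + Tec hearts 1 and 3 and high in the other 3. The sums of the 4 ran from 256 to 10253 FPKM and from 128 to 5032 FPKM and consisted mostly of Nppa, which is also a gene of cardiac hypertrophy (906 of the 906 FPKM in Ang II + Tec heart 1). The 7 fibroblast markers, among them Col1a1 and Postn, summed to 705, 929 and 163 FPKM against 136, 221 and 150 FPKM, so that Ang II heart 3 lay with the hearts given Tec. Macrophage markers, 6 of 6 tested and none listed at 0, summed to 101, 126 and 68.5 FPKM against 43.3, 45.5 and 50.1 FPKM, with no overlap, and all 6 were lower at an unadjusted p under 0.05 (median log2 fold change -0.77). Of the 4 skeletal muscle markers tested, Atp2a1 and Mylpf were higher with Tec (log2 fold changes 2.90 and 1.80, adjusted p = 0.000251 and 0.0142). Tnnt3 had -1.77 ± 1.09 and Tnni2 0.78 ± 0.57, with the groups overlapping for both. The summed skeletal muscle markers overlapped too, at 8.86, 51.2 and 1.36 FPKM against 15.6, 17.1 and 18.5 FPKM. The sum of the endothelial markers, 8 of 8 tested, varied little. It ran from 128 to 142 FPKM in the Ang II group and from 118 to 134 FPKM in the hearts given Tec. Singly, 5 had a log2 fold change below 0 and 3 above, from -0.36 for Emcn to 0.28 for Robo4. Cldn5 (-0.29) and Egfl7 (-0.30) were lower at an unadjusted p under 0.05 and without overlap, as were 16.5% and 18.9% of all tested genes, respectively. In such bulk samples, fewer cells of a type and less RNA per cell cannot be told apart.

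Vegfb was the most abundant of the 9 genes and Vegfa came next. Vegfb (ENSMUSG00000024962, chr19:6982473-6987651, minus strand, GRCm38 as for all genes here) encodes a ligand linked in heart to coronary vessels and fatty acid uptake. It stood at 106, 75.5 and 115 FPKM in Ang II hearts 1 to 3 and at 103, 110 and 102 FPKM in the hearts given Tec. Ang II heart 2 was the lowest, and the groups overlapped. The log2 fold change was 0.11 ± 0.17 (SE, n = 3 per group, 95% interval -0.28 to 0.50, adjusted p = 0.699). Without Ang II heart 2 it turned to -0.07, so its sign rested on that library.

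Vegfa (ENSMUSG00000023951, chr17:46016993-46032369, minus strand) encodes the ligand that oxygen shortage is best known to induce. Its levels were 37.7, 33.7 and 36.6 FPKM in the Ang II group and 42.5, 41.4 and 31.4 FPKM in the hearts given Tec. Both the highest hearts and the lowest heart had been given Tec, and the log2 fold change was 0.08 ± 0.14 (95% interval -0.26 to 0.42, adjusted p = 0.744). The sign turned to -0.04 when libraries were weighted by their quality. On the median of ratios it was 0.31 ± 0.16 (adjusted p = 0.384), with the groups still overlapping.

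The ratio of both transcripts within a library does not change when each library is divided by a factor of its own. Vegfa stood at 0.356, 0.447 and 0.319 of Vegfb in the Ang II group and at 0.413, 0.377 and 0.307 of it in the Ang II + Tec group. The mean log2 ratio was -1.43 ± 0.25 (SD, n = 3) and -1.46 ± 0.22, a difference of -0.03 (exact permutation test over libraries, two-sided, p = 0.9, and 0.9 after adjustment over the 3 ratios tested). With 3 hearts against 3 this test cannot go below 0.1.

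The promoters of both genes are shown because these genes hold nearly all of the family's ligand RNA in this tissue. The stretches are the bases just before the RefSeq start on GRCm38.p6, at chr17:46032378-46032627 for Vegfa and chr19:6987652-6987901 for Vegfb, both read along the minus strand, and none of their 250 bases lies in an annotated exon. Capitals mark GGGCGG, the GC box, or its complement CCGCCC.
Vegfa: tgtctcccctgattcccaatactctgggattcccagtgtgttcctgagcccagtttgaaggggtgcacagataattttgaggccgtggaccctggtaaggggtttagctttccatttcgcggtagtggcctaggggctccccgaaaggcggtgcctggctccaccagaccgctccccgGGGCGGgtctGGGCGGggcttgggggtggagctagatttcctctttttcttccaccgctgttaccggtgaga
Vegfb: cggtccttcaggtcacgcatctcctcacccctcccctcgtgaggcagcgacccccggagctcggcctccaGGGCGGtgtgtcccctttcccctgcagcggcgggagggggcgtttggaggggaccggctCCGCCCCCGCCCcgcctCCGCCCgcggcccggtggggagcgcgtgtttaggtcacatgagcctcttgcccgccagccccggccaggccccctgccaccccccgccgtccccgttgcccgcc
The GC box occurred 2 times before Vegfa and 4 times before Vegfb over both strands. Of the 32851 promoter windows in the RefSeq table, 32.7% held it at least 1 time in the same 250 bases. GCGTG, a core of the hypoxia response element, was found 2 times before Vegfb and 0 times before Vegfa, and 28.2% of all windows held it. The other core, ACGTG, was in neither, with 16.6% of all windows holding it. Bases further from the start than these 250 were not searched for either core. The G + C content was 59.2% before Vegfa and 76.4% before Vegfb, where the median window had 52.4%.

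Pgf and Vegfc were both low. Of the summed FPKM of the 4 VEGF ligands, Vegfb made up 70.8% ± 3.8 (SD, n = 3) without Tec and 71.6% ± 2.9 with it. Vegfa made up 26.3% ± 3.1 and 26.1% ± 2.9. Vegfc held 1.76% ± 0.80 and 1.10% ± 0.26, and Pgf 1.08% ± 0.16 and 1.23% ± 0.23.

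Vegfc (ENSMUSG00000031520, chr8:54077606-54187096, plus strand), the ligand of lymphatic growth, stood at 2.73, 2.83 and 1.42 FPKM in the Ang II group and at 2.01, 1.76 and 1.13 FPKM in the hearts given Tec. Ang II hearts 1 and 2 were the highest of the 6, while Ang II heart 3 lay among the treated hearts, as it did for fibroblast markers. The log2 fold change was -0.32 ± 0.22 (95% interval -0.83 to 0.19, adjusted p = 0.407). Without Ang II heart 3 it was -0.54 with an adjusted p of 0.0464, in a fit where 341 genes were called higher and 3435 lower. What part the fibroblast share of the libraries had in this was not tested.

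Pgf (ENSMUSG00000004791, chr12:85166635-85177790, minus strand) encodes a ligand that is scarce in healthy adult tissue. It had 1.43, 1.13 and 1.95 FPKM in the Ang II group and 1.49, 1.90 and 2.01 FPKM in the hearts given Tec. Ang II hearts 1 and 2 were the lowest, and Ang II heart 3 again stood with the treated hearts. The log2 fold change was 0.17 ± 0.15 (95% interval -0.19 to 0.53, adjusted p = 0.516), positive in all 17 other fits, where it ran from 0.06 to 0.35. The log2 ratio of Pgf to Vegfa was -4.62 ± 0.35 in the Ang II group and -4.42 ± 0.44 with Tec, a difference of 0.20 (exact permutation test, two-sided, p = 0.6, adjusted 0.9).

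Vegfd, the other VEGFR3 ligand, was not among the 9 genes and is given for comparison. It stood at 2.44, 3.59 and 0.63 FPKM in the Ang II group and at 0.52, 1.51 and 0.61 FPKM in the hearts given Tec. Its log2 fold change was -0.69 ± 0.38 (adjusted p = 0.339), and as for Vegfc the high values were those of Ang II hearts 1 and 2.

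**Figure D1:**
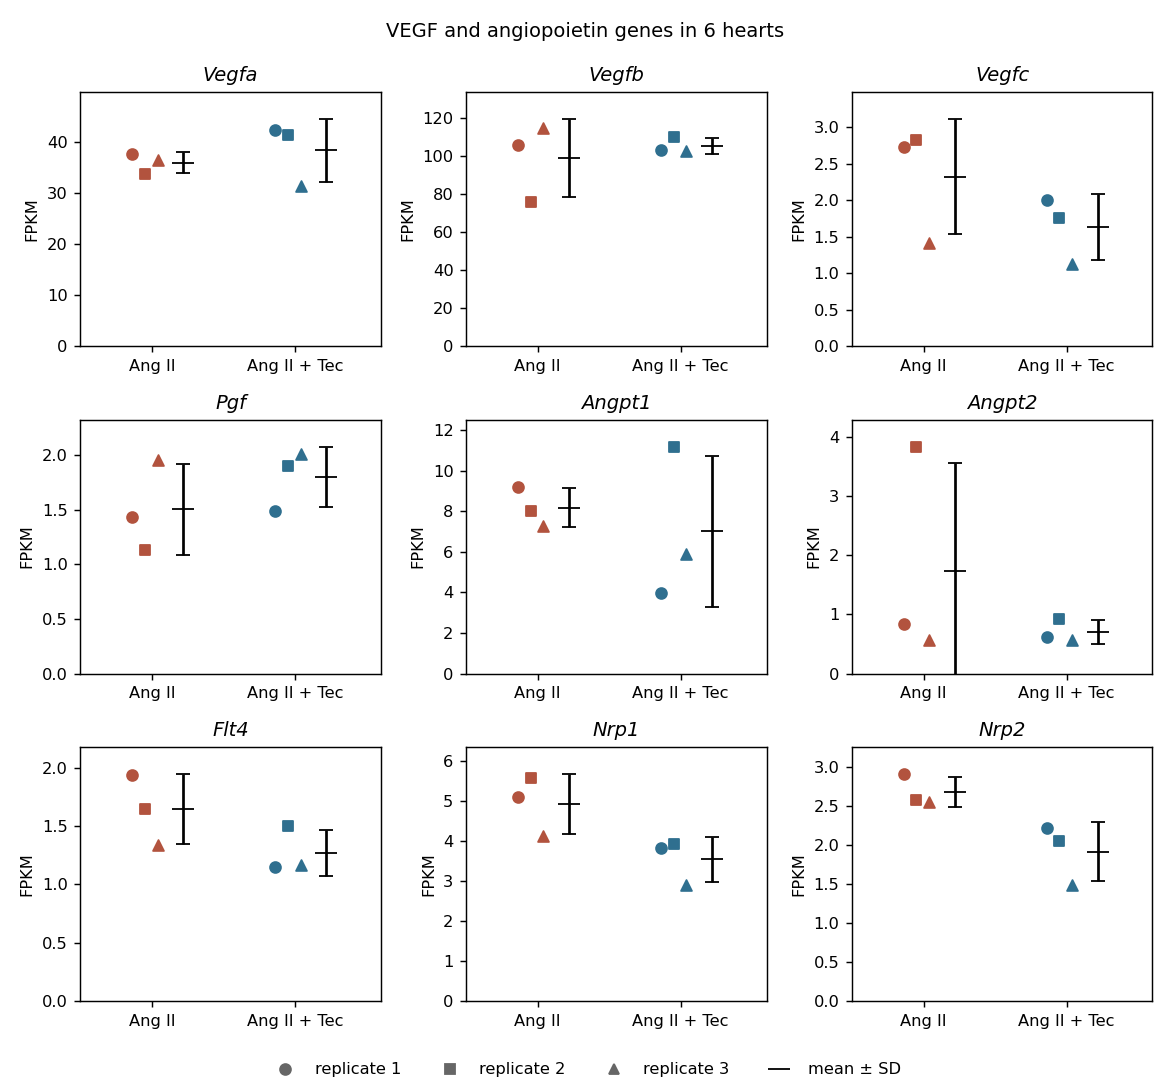
FPKM of the 9 genes in each heart (vertical axes, each from 0), with Ang II hearts in red and Ang II + Tec hearts in blue, the symbol giving the replicate and the bar the mean ± SD of 3 hearts. Only for Nrp1 and Nrp2 do the points of the groups not overlap, lower with Tec, as for 18.9% of all tested genes. The Angpt2 mean of the Ang II group (1.74 FPKM) is carried by replicate 2 at 3.83 FPKM (its lower SD bar is cut at 0).

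The angiopoietins varied more between hearts of a group than any other of the 9 genes. The pooled SD within groups on the log2 scale was 0.63 for Angpt2 and 0.48 for Angpt1, above that of 97.0% and 94.1% of tested genes. For the other 7 genes it ran from 0.15 to 0.32.

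Angpt1 (ENSMUSG00000022309, chr15:42424723-42676977, minus strand), the agonist of Tie2 made by pericytes and other mural and stromal cells, stood at 9.22, 8.02 and 7.30 FPKM in the Ang II group. The hearts given Tec had 3.96, 11.2 and 5.89 FPKM, so that they held both the lowest and the highest value. The log2 fold change was -0.29 ± 0.30 (95% interval -1.01 to 0.42, adjusted p = 0.569). Without Ang II + Tec heart 1 it was 0.00, and without Ang II + Tec heart 2 it was -0.65 (adjusted p = 0.274).

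Ang II + Tec heart 2, the highest for Angpt1, also had the highest adipocyte and mesothelial markers. Its 3 adipocyte markers summed to 43.5 FPKM, against 0.15 and 1.38 FPKM in the other hearts given Tec and 0.49 to 9.18 FPKM in the Ang II group. The 4 mesothelial markers summed there to 14.4 FPKM, against 0.61 to 9.34 FPKM in the other 5 hearts, and its atrial markers to 5032 FPKM. With the atrial markers as a covariate, an alternative chosen after seeing the data, the log2 fold change of Angpt1 was -0.12 ± 0.23. The part of fat, mesothelium or atrium in the Angpt1 level was not tested.

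Angpt2 (ENSMUSG00000031465, chr8:18690263-18741562, minus strand), a Tie2 ligand made by endothelial cells, had the lowest mean level of the 9 genes. It had 0.83, 3.83 and 0.56 FPKM in the Ang II group and 0.62, 0.93 and 0.56 FPKM in the hearts given Tec. Ang II heart 2 alone stood above 1 FPKM, and the other 5 hearts lay within 0.56 to 0.93 FPKM. The log2 fold change was -0.50 ± 0.39 (95% interval -1.43 to 0.43, adjusted p = 0.465) and became 0.01 ± 0.15 without Ang II heart 2. With weighted libraries it was -1.21 (adjusted p = 0.0319), a fit that called 270 genes higher and 3272 lower and whose weights did not reach the convergence tolerance.

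Ang II heart 2 was also the highest of the 6 for pericyte and smooth muscle markers, with 9 genes summing to 448 FPKM against 248 to 273 FPKM in the other Ang II hearts and 211 to 360 FPKM with Tec. The 4 red blood cell markers summed there to 804 FPKM, against 122 to 513 FPKM in the other 5. Endothelial markers were highest there by a small margin (142 against 118 to 134 FPKM). The same heart was also highest for the sums of fibroblast (929 FPKM), macrophage (126 FPKM), atrial (10253 FPKM) and skeletal muscle markers (51.2 FPKM against 1.36 to 18.5 FPKM). Their part in the Angpt2 value was not tested.

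Angpt2 stood at 0.090, 0.478 and 0.077 of Angpt1 in the Ang II group and at 0.157, 0.083 and 0.095 of it in the Ang II + Tec group. The log2 ratio was -2.75 ± 1.46 (SD, n = 3) and -3.22 ± 0.48, a difference of -0.47 (exact permutation test, two-sided, p = 0.9, adjusted 0.9). It was 0.37 without Ang II heart 2. Angpt1 was thus the more abundant angiopoietin in every heart, and the difference in the ratio was smaller than its spread between hearts.

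The receptor genes of the angiopoietins varied little between hearts. Tek (Tie2) stood at 9.16, 9.52 and 8.43 FPKM in the Ang II group and at 8.63, 8.00 and 7.85 FPKM in the hearts given Tec (log2 fold change -0.13 ± 0.11, adjusted p = 0.475). Tie1, its partner receptor, ran only from 13.8 to 14.8 FPKM over the 6 hearts, and only 0.206% of tested genes had a smaller spread within groups. Ptprb, the phosphatase that dampens Tie2, had a log2 fold change of -0.02 ± 0.13. With the median of ratios the signs of these 3 genes turned (0.08 for Tek, 0.19 for Tie1 and 0.18 for Ptprb), and none had an unadjusted p under 0.05. Angpt4 lay between 0.08 and 0.70 FPKM and did not pass the filter.

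Flt4, Nrp1 and Nrp2 all had negative log2 fold changes, as did 10471 of the 13089 tested genes. Those of 3 of the 4 VEGF ligands were positive, though 1 fit each turned the sign of Vegfa and Vegfb. Nrp1 (ENSMUSG00000025810, chr8:128358604-128462081, plus strand) stood at 5.10, 5.57 and 4.12 FPKM in the Ang II group and at 3.82, 3.93 and 2.90 FPKM in the hearts given Tec. The lowest Ang II heart, replicate 3, lay above the highest heart given Tec by 0.19 FPKM. The mean with Tec was 0.72 of that without, with a log2 fold change of -0.38 ± 0.15 (95% interval -0.73 to -0.03, unadjusted p = 0.0367, adjusted p = 0.25).

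Nrp2 (ENSMUSG00000025969, chr1:62703285-62818695, plus strand), a neuropilin that binds VEGF-C as well as VEGF-A, stood at 2.91, 2.58 and 2.56 FPKM in the Ang II group and at 2.22, 2.05 and 1.49 FPKM in the hearts given Tec. Here too every heart given Tec was lower than every other, and Ang II + Tec heart 3 was the lowest for both neuropilins. The mean with Tec was again 0.72 of that without (log2 fold change -0.34 ± 0.13, 95% interval -0.65 to -0.03, unadjusted p = 0.0358, adjusted p = 0.249).

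Flt4 (ENSMUSG00000020357, chr11:49609263-49652739, plus strand), which encodes VEGFR3, had 1.94, 1.65 and 1.34 FPKM in the Ang II group and 1.15, 1.5 and 1.17 FPKM in the hearts given Tec. The groups overlapped through Ang II heart 3 and Ang II + Tec heart 2. Its log2 fold change was -0.21 ± 0.13 (95% interval -0.52 to 0.09, adjusted p = 0.370), close to the median of all tested genes. Beside it, 4 of the 5 lymphatic markers tested had a log2 fold change below 0, from -0.85 ± 0.25 for Ccl21a (unadjusted p = 0.0104, adjusted p = 0.218) and -0.72 ± 0.46 for Pdpn to -0.07 ± 0.14 for Prox1 and -0.03 ± 0.19 for Mmrn1, and Lyve1 was at 0.09 ± 0.23. The lymphatic markers, 6 of 6 in the table, summed to 37.5 to 55.2 FPKM in the Ang II group and 28.2 to 41.2 FPKM with Tec, none being listed at 0, and their part in the Flt4 value was not tested.

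The 2 members with an unadjusted p under 0.05, both lower, have to be read against a table in which 16.5% of tested genes were lower at that limit and 2.09% higher. Groups that did not overlap, lower with Tec, were found for 2 of 9 members and for 18.9% of tested genes, and in the other direction for 0 of 9 and 2.9%. At an adjusted p under 0.05 the counts were 0 of 9 and 0.183%, or 24 genes in all. The share of members that were lower was therefore near that of all genes. The median log2 fold change was -0.29 over the 9 members and -0.17 over all tested genes.

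Relative to the general shift, the neuropilins kept their sign, and their separation depended on the scaling. After scaling by the median of ratios, Nrp1 stood at 4.42, 4.71 and 4.36 in the Ang II group and at 4.40, 3.82 and 3.29 in the Ang II + Tec group, in scaled FPKM, so that heart 1 given Tec fell within the Ang II range. Nrp2 stood at 2.52, 2.18 and 2.71 against 2.56, 1.99 and 1.69 and overlapped as well. The log2 fold changes were -0.19 ± 0.10 (adjusted p = 0.388) and -0.18 ± 0.12 (adjusted p = 0.475). With the libraries scaled to 8 endothelial markers, chosen after seeing the data, they were -0.30 ± 0.13 and -0.27 ± 0.13. The groups overlapped for both genes with quantile normalization too, and stayed apart for both with the endothelial scale and with the sum without the mitochondrial genome. Genes with groups apart and lower with Tec made up 10.8% of all tested genes with the median of ratios, 10.2% with quantile normalization, 13.5% with the endothelial scale and 15.6% with the sum. The summed macrophage markers also lay lower in every heart given Tec, and their part in the neuropilin values was not tested. Nrp1 was called with weighted libraries (-0.61, adjusted p = 0.0384) and without Ang II heart 3 (-0.48, adjusted p = 0.0390), and Nrp2 in none of the fits. The fits that called Nrp1 also called 27.1% and 28.8% of all tested genes.

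The promoters of the neuropilins are shown because they were the pair that separated the groups in the deposited FPKM. The stretches lie at chr8:128358823-128359072 for Nrp1 and chr1:62703067-62703284 for Nrp2, both on the plus strand of GRCm38.p6. For Nrp1 these are 250 bases before the RefSeq start, which lie within the gene's span in the table but in no annotated exon, and for Nrp2 the 218 bases before the first annotated exon. Capitals again mark GGGCGG or CCGCCC.
Nrp1: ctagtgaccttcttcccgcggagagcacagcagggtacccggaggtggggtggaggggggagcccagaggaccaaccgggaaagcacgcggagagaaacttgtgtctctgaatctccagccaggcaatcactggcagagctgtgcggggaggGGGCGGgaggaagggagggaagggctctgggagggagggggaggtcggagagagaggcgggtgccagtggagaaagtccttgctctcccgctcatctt
Nrp2: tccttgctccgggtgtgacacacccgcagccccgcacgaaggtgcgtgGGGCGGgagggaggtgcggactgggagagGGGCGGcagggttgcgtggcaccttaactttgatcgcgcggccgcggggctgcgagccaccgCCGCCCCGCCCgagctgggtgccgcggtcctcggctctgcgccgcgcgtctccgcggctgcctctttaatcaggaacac
The GC box was found 1 time before Nrp1 and 4 times before Nrp2, where a pair of copies on the other strand overlap by a base, and 28.2% of all windows held it in their first 218 bases. GCGTG was found 1 time before Nrp1 and 2 times before Nrp2, and ACGTG in neither. The G + C content was 64.4% and 72.5%, so that all 4 promoters shown were above the median window. Angpt1 and Angpt2 had no entry in the promoter table.

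**Figure D2:**
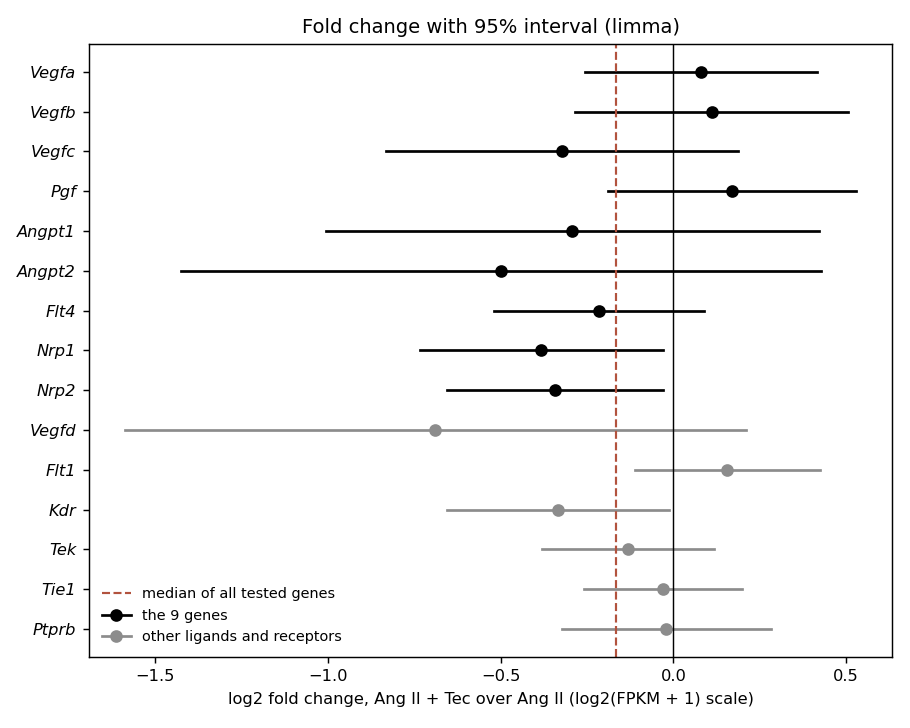
Log2 fold changes (horizontal axis, log2(FPKM + 1) scale) of the 9 genes in black and of 6 other ligands and receptors in grey, as points with 95% intervals from limma. The intervals of Nrp1, Nrp2 and Kdr lie below 0 but span the median of all tested genes, -0.17 (dashed line), and those of Angpt2 and Vegfd are the widest.

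The main receptors of VEGF-A had log2 fold changes of opposite sign. Kdr (VEGFR2), which transmits most VEGF-A signals, had 9.03, 7.68 and 9.44 FPKM in the Ang II group and 6.94, 7.51 and 5.71 FPKM in the hearts given Tec, with no overlap (log2 fold change -0.33 ± 0.14, unadjusted p = 0.0431, adjusted p = 0.259). Flt1 (VEGFR1), which also acts as a sink for VEGF-A, was at 5.64, 5.13 and 6.38 FPKM and at 6.33, 6.47 and 6.59 FPKM (0.16 ± 0.11, adjusted p = 0.436). Neither passed the adjusted limit, and with the median of ratios Kdr was at -0.13 ± 0.16 (unadjusted p = 0.438) and Flt1 at 0.36 ± 0.15 (unadjusted p = 0.0542).

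In the order of their levels over the 6 hearts, the members ran from Vegfb (mean 102 FPKM) through Vegfa (37.2), Angpt1 (7.60), Nrp1 (4.24), Nrp2 (2.30), Vegfc (1.98), Pgf (1.65) and Flt4 (1.46) to Angpt2 (1.22). Vegfb was above Vegfa in 6 of 6 hearts, by 2.24 to 3.26 times, and Vegfa above Angpt1 in 6 of 6, by 3.71 to 10.7 times. Angpt1 over Nrp1 and Nrp1 over Nrp2 also held in every heart. Below that the order was not stable, since Nrp2 exceeded Vegfc in 5 hearts, Vegfc exceeded Pgf in 3, Pgf exceeded Flt4 in 4 and Flt4 exceeded Angpt2 in 5. Vegfb and Vegfa lay above 97.5% and 93.6% of tested genes by mean FPKM, and Angpt2 above 20.6%.

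The genes whose course over the 6 libraries was most like that of the 3 members with the widest range were sought among 11048 genes with a mean of at least 1 FPKM. Likeness was the mean absolute difference of centred log2(FPKM + 1), which is a description of 6 libraries that differ in tissue make-up. For Angpt2, which ranged over 1.63 on the log2 scale, these were Tm4sf1 (0.10), Nes (0.15) and Zdhhc2 (0.15). All 3 peaked in Ang II heart 2, Tm4sf1 with 40.6 FPKM against 12.2 to 18.3 FPKM elsewhere and Nes, the intermediate filament nestin, with 7.32 against 2.14 to 3.54 FPKM.

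For Angpt1, with a range of 1.3 on that scale, they were Adgrl1 (0.09), Nudt4 (0.11) and Tppp3 (0.11). Each was highest in Ang II + Tec heart 2 and lowest in Ang II + Tec heart 1, Nudt4 with 99.05 and 45.0 FPKM. For Vegfc, with a range of 0.85, they were Znrd1, Pdlim1 and Comtd1, each at 0.05, and these were higher in Ang II hearts 1 and 2 than in the other 4.

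**Figure D3:**
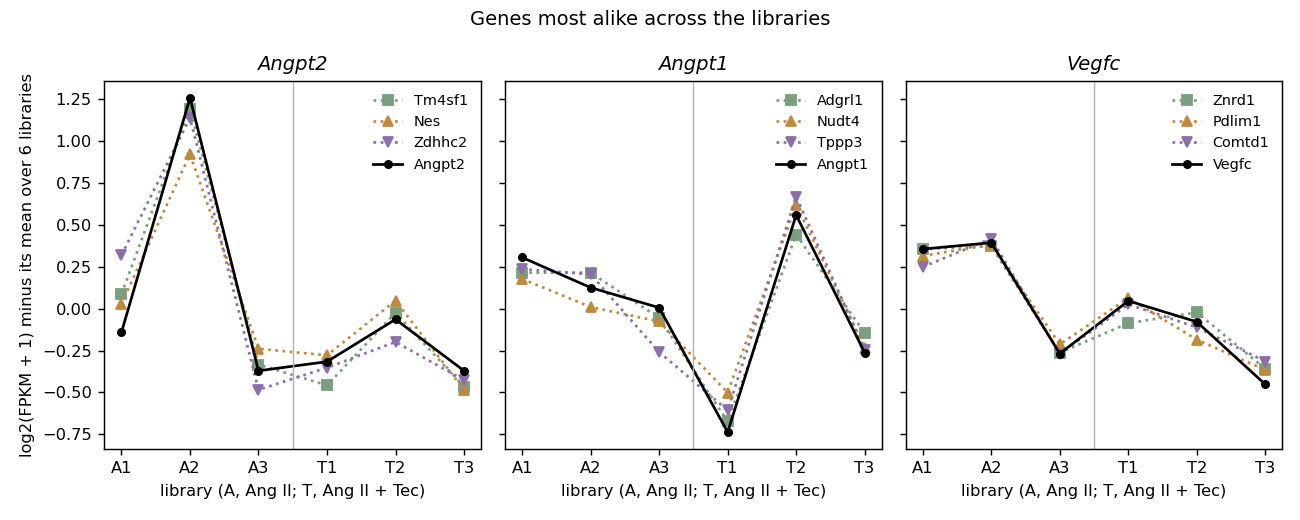
Centred log2(FPKM + 1) (vertical axis) over the 6 libraries (A1 to A3, Ang II; T1 to T3, Ang II + Tec) for Angpt2, Angpt1 and Vegfc in black and the 3 genes nearest to each in colour. Angpt2 and its neighbours peak in Ang II replicate 2, and Angpt1 and its neighbours in Ang II + Tec replicate 2.

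None of 82 tested genes in the other lists of the pathway was called at an adjusted p under 0.05, while 14 were lower and 0 higher at an unadjusted p under 0.05. With the median of ratios these counts were 9 and 4, beside 8.2% of all tested genes lower and 7.36% higher. Without Ang II heart 3 they were 38 and 1, beside 39.3% and 4.32% of all tested genes, and 26 of the 82 then passed the adjusted limit, beside 28.8% of all. The median log2 fold change was -0.20 as reported, and the share of genes lower at the unadjusted limit was close to the 16.5% of all genes. Of 33 tested genes that relay VEGF receptor signals inside the cell, 6 were lower at that limit. Akt1, the kinase downstream of PI3K, stood at 60.1, 56.8 and 52.7 FPKM in the Ang II group and 35.1, 35.4 and 33.7 FPKM in the hearts given Tec (log2 fold change -0.68 ± 0.10, adjusted p = 0.0917). The small GTPase Hras had -0.71 ± 0.13 (adjusted p = 0.154), and both genes had no overlap between the groups and were still below an unadjusted p of 0.05 with the median of ratios.

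Among 10 genes of oxygen sensing and Vegfa transcription, 3 were lower at the unadjusted limit, beside 16.5% of all tested genes. Egln3, a prolyl hydroxylase that marks HIF for destruction, stood at 26.4, 21.9 and 17.03 FPKM against 11.4, 12.3 and 12.2 FPKM (-0.79 ± 0.16, adjusted p = 0.180). Vhl, which binds hydroxylated HIF, had -0.39 ± 0.15 and Esrra, a nuclear receptor of energy metabolism, -0.32 ± 0.12 (-0.09 ± 0.14 with the median of ratios). Of 9 hypoxia target genes tested, Ankrd37 was lower at the limit, with 2.49, 2.57 and 2.32 FPKM against 1.14, 1.56 and 1.18 FPKM (-0.60 ± 0.12, adjusted p = 0.169). Vegfa, itself a HIF target, had a value of 0.08 beside these.

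Of 10 tip cell and Notch genes tested, Nrarp (-0.39 ± 0.14) and Pdgfb (-0.34 ± 0.12) were lower at the unadjusted limit. So were 16.5% of all tested genes. With the median of ratios, neither Nrarp nor Pdgfb reached that limit (-0.20 and -0.14). Of 5 genes that process VEGF-C and VEGF-D, Adamts2 was lower, at 9.84, 14.6 and 2.22 FPKM against 1.49, 2.55 and 1.40 FPKM (-1.56 ± 0.54, adjusted p = 0.229), and as for Vegfc and Vegfd its high values were those of Ang II hearts 1 and 2. Of 9 class 3 semaphorins and plexins tested, the other partners of the neuropilins, 0 reached the unadjusted limit.

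**Figure D4:**
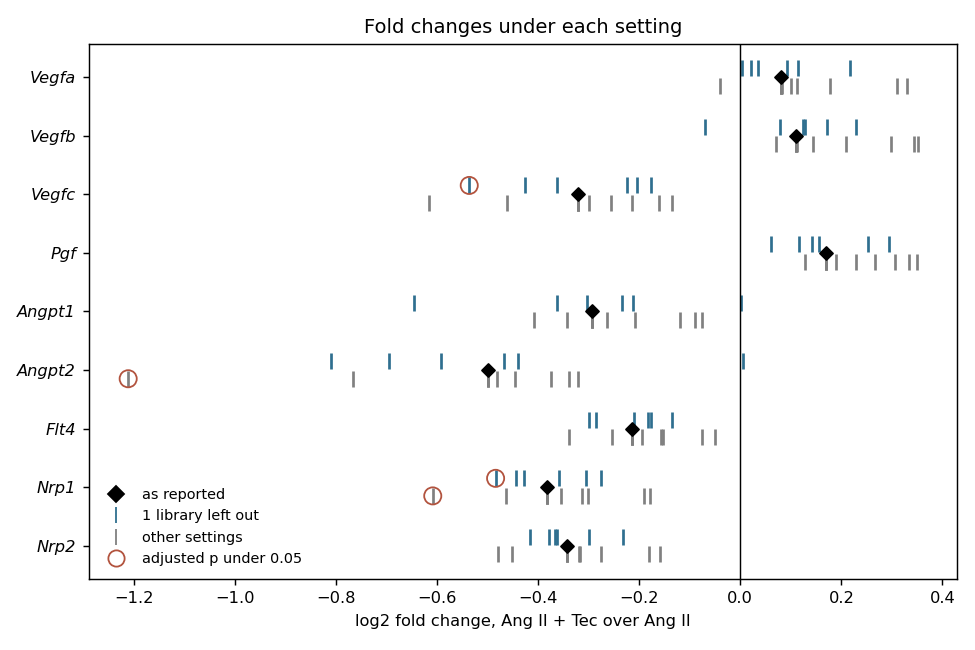
Log2 fold changes (horizontal axis) of the 9 genes as reported (diamonds), with 1 library left out (blue ticks) and under other scalings, filters and models (grey ticks), with circles at an adjusted p under 0.05. Nrp1, Nrp2, Flt4 and Vegfc stay below 0 and Pgf above 0 in every fit, while 1 fit each turns the sign of Vegfa, Vegfb, Angpt1 and Angpt2.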

How the data were processed

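Total RNA of 6 mouse hearts was sequenced as poly(A) libraries with paired ends. The authors trimmed reads (Cutadapt), inspected their quality (FastQC) and deposited 1 FPKM value per gene and library, used here without further scaling. The submitters' processing notes name Bowtie 0.12.2, HISAT2 2.0 and StringTie 1.3.0, and a genome build other than GRCm38. The table's coordinates equal those of GENCODE M21 on GRCm38 for 8 of the 9 members and for 27947 of 30832 shared genes. The submitters' extract protocol names an adipose type, whereas the sample titles name hearts.

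No count model was used, as FPKM are not counts. Genes with at least 0.5 FPKM in at least 3 libraries were fitted as log2(FPKM + 1) with limma 3.58.1 in R 4.3.3 (group only, variance trend), with Benjamini-Hochberg adjustment over 13089 genes. The script was tested on simulated data. The hearts are taken as separate mice. Ratios of members were compared by an exact two-sided permutation test over libraries.

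All members and all other ligands and receptors are named, as are up to 3 genes per other list with the smallest p among those with an unadjusted p under 0.05, and the 3 genes most alike to each of the 3 members with the widest range. A gene that this rule names is not reported here. The members and lists were chosen with earlier results of these data known. Other genes named, and 2 added alternatives, were chosen after their values were seen. Promoters came from RefSeq, in which 7 of the 9 members had an entry. Replicate numbers are not known to pair the hearts. The correlations of deviations from the group mean were -0.04, 0.43 and 0.38 for replicates 1 to 3, which cannot decide it.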

Additional observations from a re-analysis of the deposited data

How the results depend on the processing

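The results of 17 alternatives beside the reported fit are given here (pseudocount, filter, scaling, variance model, library weights, replicate block, each library left out, and atrial markers as covariate or endothelial markers as scale, the last 2 chosen after seeing the data). At an adjusted p under 0.05, 0.183% of all tested genes were called as reported, 27.1% with library weights and 28.8% without Ang II replicate 3. The number of members called at that limit was 0 as reported and 2 with library weights (Angpt2 and Nrp1). It was 0 to 2 with a library left out (2, Nrp1 and Vegfc, without Ang II replicate 3) and 0 in the other fits. The number with an unadjusted p under 0.05 was 2 as reported, 0 with the median of ratios or quantile normalization, 5 with library weights, 1 with endothelial scaling and 0 to 4 with a library left out (0 without Ang II replicate 1, Ang II replicate 2 or Ang II + Tec replicate 3, 1 without Ang II + Tec replicate 1, 4 without Ang II replicate 3). These members were all lower with Tec, and of all tested genes 16.5% were lower at that limit as reported, 8.2% with the median of ratios, 7.85% with quantile normalization, 42.3% with library weights, 11.8% with endothelial scaling, 39.3% without Ang II replicate 3 and 6.29% to 16.4% without another library. With the replicate block, whose numbers are not known to pair the hearts, 3 members had an unadjusted p under 0.05 (Vegfc, Nrp1 and Nrp2). In that fit 22.9% of all tested genes were lower at that limit. After adjustment 0 members were called there, beside 0.176% of all tested genes. The paired differences of the ratios were unchanged (-0.47, -0.03 and 0.20, exact sign-flip p = 1, 0.75 and 0.5, with 0.25 the smallest possible).

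The log2 fold change of Vegfa was -0.041 with library weights. With a library left out, Vegfb ran from -0.069 to 0.23, Angpt1 from -0.65 to 0.0023 and Angpt2 from -0.81 to 0.0054. The ratio differences ran from -0.95 to 0.37 (Angpt2 to Angpt1), -0.14 to 0.11 (Vegfa to Vegfb) and -0.024 to 0.41 (Pgf to Vegfa), with signs turned without Ang II replicate 2 for the former pair and without Ang II + Tec replicate 3 for the latter pair. The cause was not tested. Angpt2 was not tested with the filter of 1 FPKM. Over all genes, 24 were called as reported, 3542 with library weights, 3776 without Ang II replicate 3 and 2 to 7 without any other library. Only the relative depth can be read from FPKM, which limits what can be said of genes near 1 FPKM.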
